A study of Homo sapiens with 2 samples.

Results

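The 7 genes described here are IGF2BP1, IGF2BP2 and IGF2BP3, which encode the IGF2BP family of RNA-binding proteins, and HMGA1, HMGA2, LIN28B and DICER1, which are known targets of the let-7 microRNAs. They were chosen by name, and every IGF2BP3 LACE-seq peak that overlapped the span of one of them in the GENCODE 44 annotation of hg38 was taken as a member peak. This rule was met by 13 of the 21142 peaks of replicate 1 and by 17 of the 20799 of replicate 2. Both replicates belong to a single group of OE-19 cells, and both are labelled with UV crosslinking at 264 nm and 400 mJ. OE-19 is an established cell line that was derived from adenocarcinoma at the junction of esophagus and stomach. In LACE-seq, UV light crosslinks RNA to the protein that holds it, the protein is pulled down, here with an antibody against IGF2BP3, and linear amplification of cDNA ends precedes sequencing. An input or IgG control was not analysed here, so a peak stands for more reads than in its surroundings within the same library.

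IGF2BP proteins bind mRNA through RRM and KH domains, are made mainly in the embryo, and return in many tumors, where they protect bound mRNAs from decay. They are also known as readers of N6-methyladenosine (m6A). The let-7 microRNAs rise as tissues mature and pair through their seed with sites that lie mostly in 3′ UTRs, and the IGF2BP mRNAs are among the mRNAs they repress. LIN28B blocks the maturation of let-7, HMGA1 and HMGA2 are chromatin proteins of early development, and DICER1 cuts precursors into mature microRNAs and is itself repressed by let-7 through sites in its coding sequence. The comparisons below ask whether the mRNAs of the IGF2BP family carry IGF2BP3 sites themselves, in which region, and whether these sites lie on the let-7 sites of the same mRNAs.

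In all, 11 mature human microRNAs in the RefSeq table for GRCh38.p14 carried the let-7 seed. Of these, 4 are shown, with the seed (bases 2 to 8) in capitals, because the sites below are the reverse complement of that seed.
hsa-let-7a-5p: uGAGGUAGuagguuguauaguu
hsa-let-7d-5p: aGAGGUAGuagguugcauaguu
hsa-let-7i-5p: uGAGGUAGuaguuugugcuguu
hsa-miR-98-5p: uGAGGUAGuaaguuguauuguu
The seed match in an mRNA therefore reads CTACCTC in genome letters on the gene strand. A match followed by A is called an 8-mer here, and any other a 7-mer. The following 7 matches, in capitals with their hg38 flanks, are shown because they are the only match, or the match nearest the stop codon, in the canonical 3′ UTR of each gene that had one, and for DICER1 the coding match that lay under a peak.
IGF2BP1, chr17:49051076-49051082 (+): caatgctgtgtgcgaagtaaaCTACCTCaa
IGF2BP2, chr3:185644221-185644227 (-): gagaaaaacacacagaagaagCTACCTCag
IGF2BP3, chr7:23311796-23311802 (-): taaacgtgcatttttactcaaCTACCTCag
HMGA1, chr6:34245844-34245850 (+): catttttcctctgttcacaaaCTACCTCtg
HMGA2, chr12:65963313-65963319 (+): ggggcgccaacgttcgatttCTACCTCag
LIN28B, chr6:105078827-105078833 (+): tcctttacccggttgcaaagtCTACCTCat
DICER1, coding exon 21, chr14:95103749-95103755 (-): aggaaatacccgtgcaaccaaCTACCTCat

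The peak lists of the replicates were of similar size and strength. The median fold enrichment over the local background was 6.89 in replicate 1 and 7.13 in replicate 2, and the median peak was 336 and 342 bp wide. Library depth is unknown, but the pileup, the number of reads stacked at the summit, could be computed for 21130 and 20785 peaks, with a median of 22 in both. All pileups of member peaks were recovered, and the intervals on them are exact Poisson intervals at 95%, which cover counting error only, since reads copied by PCR are not independent molecules. All 7 epithelial marker genes, EPCAM and the keratins KRT8, KRT18 and KRT19 among them, had a pair of overlapping peaks in the 2 replicates, and 0 of 8 markers of other cell types did. Among the latter, COL1A1 had a peak in replicate 2 alone and PTPRC in replicate 1 alone. Of all protein-coding genes, 30.5% had such a pair.

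The mRNAs of IGF2BP2 and of IGF2BP3 itself carried IGF2BP3 peaks in both replicates, as did those of HMGA1 and DICER1, whereas IGF2BP1, HMGA2 and LIN28B had 0 peaks in either. Thus 4 of 7 genes had a peak in each replicate and a pair of peaks that overlapped between them. Among all 20046 protein-coding genes, 41.0% had a peak in replicate 1, 42.2% in replicate 2 and 34.7% in both, and 30.5% had an overlapping pair. With 7 genes chosen by name, 4 of 7 is a count beside that background and was not tested. IGF2BP2 had 3 and 5 peaks in replicates 1 and 2, IGF2BP3 had 3 and 3, HMGA1 had 2 and 3, and DICER1 had 5 and 6. Member peaks numbered 15 ± 2.83 per replicate (SD, n = 2). Peak lists hold no mRNA level, so the lack of a peak on IGF2BP1, HMGA2 and LIN28B cannot be told apart from a lack of their mRNA in these cells.

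**Figure D1:**
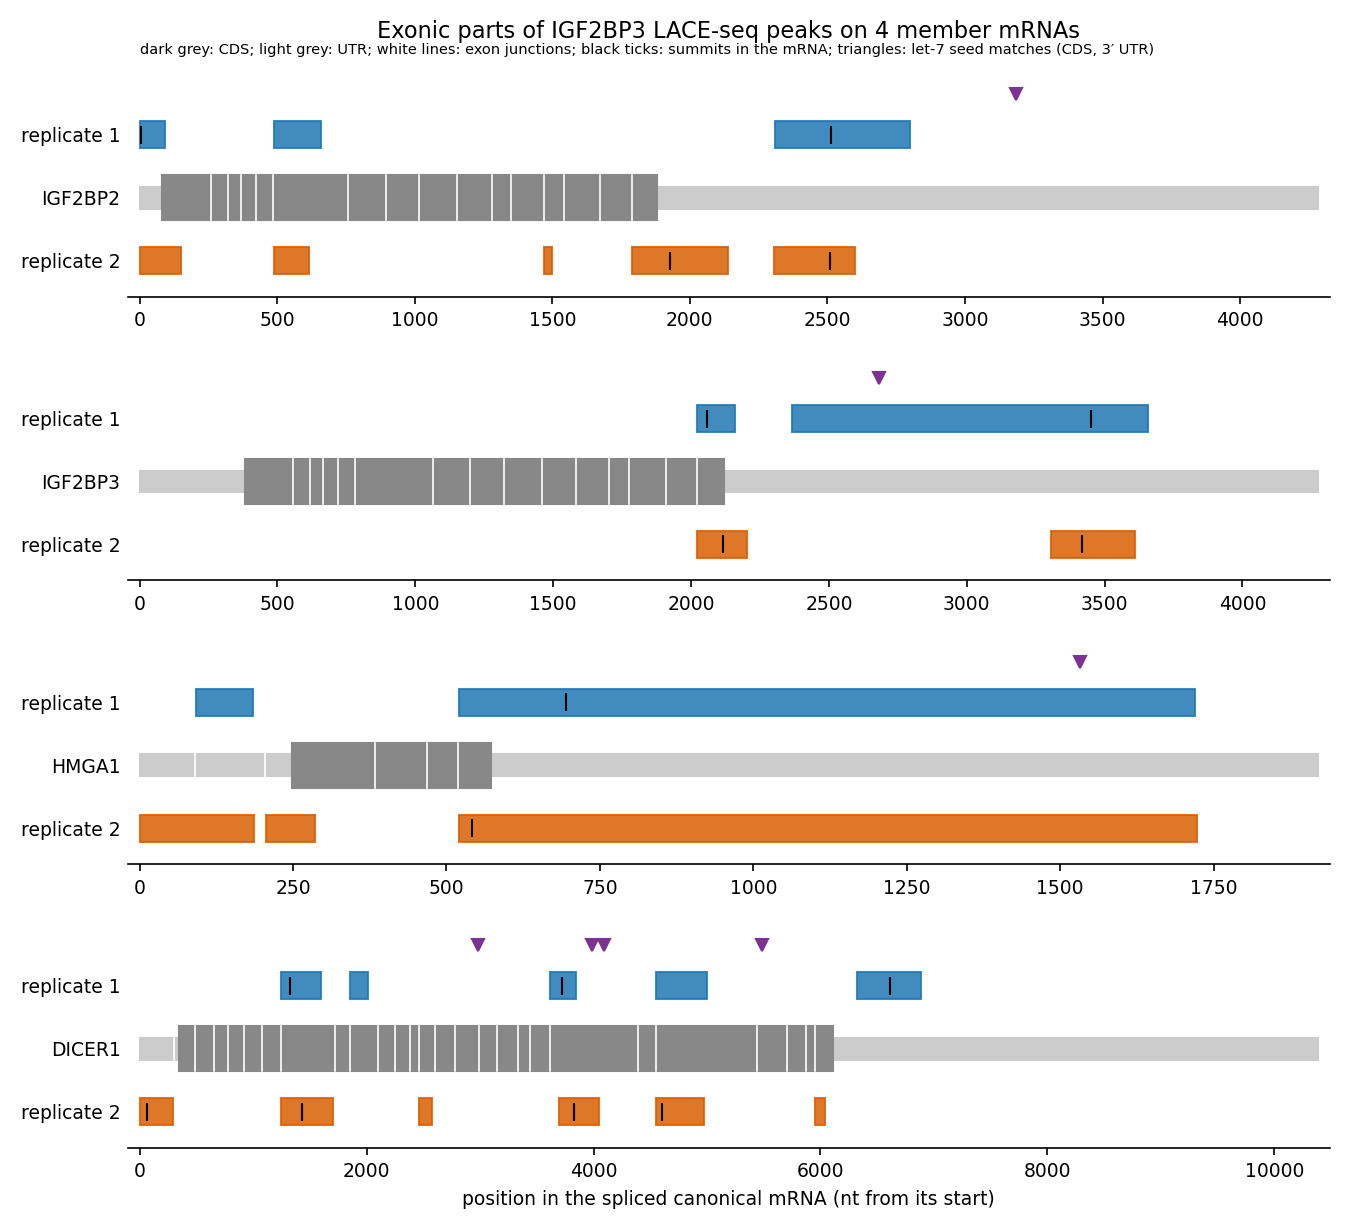
Exonic parts of the peaks of replicate 1 (blue, above) and replicate 2 (orange, below) along the spliced canonical mRNAs of IGF2BP2, IGF2BP3, HMGA1 and DICER1, in nt from the mRNA start. In IGF2BP2 and IGF2BP3 peaks of both replicates lie in the 3′ UTR, in HMGA1 1 peak per replicate spans nearly the whole last exon, and in DICER1 the pairs that the replicates share lie over coding exons 8, 21 and 23.

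The summits of member peaks were spread over the mRNA rather than confined to 1 region. By replicate 1 and 2, 3 and 5 summits lay in CDS, 4 and 4 in 3′ UTR, 2 and 2 in 5′ UTR and 4 and 5 in introns, and 1 summit of replicate 2 lay just outside its gene. The 3′ UTR held 27.1 ± 5.12% of member summits, CDS 26.2 ± 4.48%, 5′ UTR 13.6 ± 2.56% and introns 30.1 ± 0.960% (SD, n = 2). Among all summits in protein-coding genes, 24.8% and 20.2% lay in 3′ UTR, 33.6% and 34.7% in CDS, 7.49% and 13.6% in 5′ UTR, and 30.3% and 27.7% in introns. Most peaks with an intronic summit still reached an exon, as 12 of 13 and 16 of 17 peaks touched an exon of the canonical transcript. Peaks that ran across an exon-intron boundary numbered 7 of 13 and 10 of 17.

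The IGF2BP2 mRNA encodes a family member that, unlike the others, is also made in many adult tissues. The gene lies on the minus strand at chr3:185643130-185825042, and its canonical mRNA of 4283 nt has 16 exons and a 3′ UTR of 2401 nt. The pair whose summits lay closest was in that 3′ UTR, where the peak of replicate 1 at chr3:185644612-185645103 had a fold of 5.47 and a pileup of 29 (19.4 to 41.6), and the peak of replicate 2 at chr3:185644813-185645106 had a fold of 5.05 and a pileup of 22 (13.8 to 33.3). Their summits were 1 bp apart, 630 and 629 nt after the stop codon, and the mean fold was 5.26 ± 0.300 (SD, n = 2). Both folds were below the median of their list.

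A pair of peaks also lay on the transcription start and 5′ UTR of IGF2BP2 and covered the start codon, at chr3:185824951-185825243 in replicate 1 and chr3:185824891-185825294 in replicate 2. Its fold was 7.17 and 10.3 and its pileup 11 and 19, and the summit of replicate 2 fell 6 nt upstream of the annotated gene. Most of each peak, 201 of 293 bp and 252 of 404 bp, lay outside the annotated gene, and 10 and 70 bp were coding. The coding sequence was touched by another pair at exon 6, with a fold of 6.81 and 8.79 and a pileup of 11 and 14. The summits of that pair were 4 bp apart in the intron just before the exon, and 173 and 131 bp of the peaks were coding. In replicate 2 alone, IGF2BP2 had a peak at exon 13, of which 32 bp were coding, and a peak across the stop codon with a fold of 6.89 and a pileup of 30, whose summit was 44 nt after the stop codon.

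IGF2BP3 is the protein that was immunoprecipitated, and its own mRNA was among those with peaks. The gene lies on the minus strand at chr7:23310209-23470491, and its canonical mRNA of 4274 nt has 15 exons and a 3′ UTR of 2153 nt. Both sites that the replicates shared had their summits in the last exon, 1 over the stop codon and 1 farther down the 3′ UTR. Over the stop codon, the peak of replicate 1 at chr7:23312324-23312618 had a fold of 4.49 and a pileup of 31 (21.1 to 44), and that of replicate 2 at chr7:23312279-23312630 had a fold of 6.05 and a pileup of 23 (14.6 to 34.5). The summits lay in the last codons, 62 and 6 nt before the end of the stop codon, and the mean fold was 5.27 ± 1.10 (SD, n = 2). Of these 2 peaks, 158 of 295 bp and 170 of 352 bp lay in the intron before the last exon.

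The 3′ UTR site of IGF2BP3 differed between the replicates in width and height. In replicate 1 it was 1 peak of 1292 bp at chr7:23310825-23312116, wider than 98.7% of all peaks of that list, with a fold of 7.66 and a pileup of 54 (40.6 to 70.5). In replicate 2 it was a peak of 307 bp at chr7:23310871-23311177 with a fold of 6.35 and a pileup of 24 (15.4 to 35.7). The summits were 35 bp apart, 1331 and 1296 nt after the stop codon. The peaks thus placed the highest pileup at the same part of the 3′ UTR while covering 61.8% of it with replicate 1 and 18.1% with replicate 2, the stop codon peaks included. MALSU1, a gene of mitochondrial ribosome assembly, overlaps this stretch on the opposite strand, and the peaks shared 905 and 307 bp with its span. Both summits also lay within the span of MALSU1, which had 0 peaks outside IGF2BP3 in either replicate. The peaks carry no strand, so reads of the 2 genes cannot be told apart, and their source was not tested.

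The other IGF2BP3 peaks lay deep in introns and were each found in 1 replicate only. That of replicate 1 (fold 6.23, pileup 16) covered ENSG00000232627, a processed pseudogene on the opposite strand, over 276 bp. Its summit lay inside that pseudogene, and reads of the pseudogene and of the intron cannot be told apart. The intronic peak of replicate 2 had a fold of 6.35 and a pileup of 13. In sum, the IGF2BP genes had 6 peaks in replicate 1 and 8 in replicate 2, and the pairs they shared lay at the 3′ end of IGF2BP3 and at the 5′ end, exon 6 and the 3′ UTR of IGF2BP2.

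The sequences at these 3′ sites are shown as 30-nt windows on the gene strand, from hg38. They were chosen because they lie at or beside summits of the shared peaks of IGF2BP2 and IGF2BP3. Capitals mark GGAC, a core of the m6A consensus, with the U (T here) that precedes it in the UGGAC motif.
IGF2BP3, last codons, between the 2 summits, chr7:23312373-23312402: aggctctgcaaagTGGACcacctcagtcaa
IGF2BP3, replicate 2 summit at the stop codon, chr7:23312354-23312383: acctcagtcaagacggaagtaaaggctcag
IGF2BP3, replicate 1 summit in the 3′ UTR, chr7:23311017-23311046: aaaagtcaaaagatagagaatacaagaaaa
IGF2BP3, replicate 2 summit in the 3′ UTR, chr7:23311052-23311081: gatttctgtatactgtgcaatcagttcttt
IGF2BP2, 3′ UTR, beside both summits, chr3:185644854-185644883: aaatctcgtcggaaGGACactcacggcagt
IGF2BP2, replicate 1 summit in the 3′ UTR, chr3:185644887-185644916: ttgaggccacccgcacaaaattcacccaga
The TGGAC of IGF2BP3 began 26 nt before the end of its stop codon and lay within 50 nt of the summit in both replicates, 36 nt after the summit of replicate 1 and 20 nt before that of replicate 2. The GGAC of IGF2BP2 lay 32 and 33 nt after the summits. Over all members, TGGAC on the gene strand was found within 50 nt of 2 of 13 and 1 of 17 summits, against 10.0% and 10.2% of all summits in protein-coding genes of 1 strand. Of the 2 in replicate 1, 1 was at the intronic IGF2BP3 peak whose summit lay in a pseudogene of the opposite strand. GGAC, which every TGGAC contains, was found at 4 of 13 and 3 of 17 summits, against 28.9% and 31.8%. CACAC, another motif reported for IGF2BP proteins, was found at 1 of 13 and 2 of 17, against 11.5% and 10.7%. A match is only these letters and does not show that the site is methylated.

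HMGA1 had the highest pileups of the 7 genes. This gene at chr6:34236873-34246231 encodes a chromatin protein that binds AT-rich DNA, and its canonical mRNA of 1920 nt has a CDS of 324 nt and a 3′ UTR of 1347 nt. In each replicate 1 peak spanned the last exon, from the last codons through the stop codon to near the end of the 3′ UTR. The peak began in the intron before that exon, with 228 bp there in replicate 1 and 217 bp in replicate 2. It was at chr6:34244603-34246031 in replicate 1, with a fold of 8.16 and a pileup of 152 (129 to 178), and at chr6:34244614-34246034 in replicate 2, with a fold of 8.15 and a pileup of 150 (127 to 176). These pileups were at the 99.6th and 99.5th percentiles of the lists, and the widths of 1429 and 1421 bp at the 99.2nd and 99.3rd. The summits were 152 bp apart, 121 nt after the stop codon in replicate 1 and 31 nt before its end in replicate 2, and the peaks covered 85.2% and 85.4% of the 3′ UTR. Thus the replicates had the same height and extent, and the mean fold was 8.15 ± 0.00367 (SD, n = 2).

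A second pair of HMGA1 peaks was at the 5′ end, over 5′ UTR of non-canonical transcripts and exon 2 of the canonical one. The fold was 6.50 in replicate 1 and 11.5 in replicate 2, and the pileups of 27 (17.8 to 39.3) and 74 (58.1 to 92.9) did not overlap in their intervals. The summits were 5 bp apart. In replicate 2 alone, a peak at chr6:34240506-34240817 covered the start codon in exon 3 and the microRNA gene MIR6835 in the intron before it, with a fold of 4.63 and a pileup of 76. The windows at 3 summits of the paired sites are shown because the last-exon summits fell at different points of the mRNA, and the 5′ summits at nearly the same one.
HMGA1, replicate 1 summit in the 3′ UTR, chr6:34244990-34245019: ccaccgcctctggccgccacccccatcttc
HMGA1, replicate 2 summit in the last coding bases, chr6:34244838-34244867: aggaagaggagggcatctcgcaggagtcct
HMGA1, replicate 1 summit at the 5′ end, chr6:34237040-34237069: cgcacgggccgtgcccagcttcctgcccct

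In DICER1 all shared pairs of peaks lay over coding exons. The gene is on the minus strand at chr14:95086228-95158010, and its canonical mRNA of 10384 nt has 27 exons, a CDS of 5769 nt and a 3′ UTR of 4270 nt. The shared pairs lay on exons 8, 21 and 23, which with 473, 781 and 889 nt were the longest exons after the last one of 4436 nt. On exon 8 the fold was 7.96 and 8.92 and the pileup 17 and 15, on exon 21 the fold was 4.55 and 6.92 and the pileup 19 and 22, and on exon 23 the fold was 6.82 and 6.14 and the pileup 21 and 12. The means were 8.44 ± 0.675, 5.73 ± 1.68 and 6.48 ± 0.479 (SD, n = 2), and the summits were 109, 112 and 78 bp apart. The exon 23 summit of replicate 1 fell in the intron before that exon, whereas the other 5 were coding. These summits were farther apart than the 1, 4 and 9 bp of the IGF2BP2 pairs.

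The remaining DICER1 peaks differed between the replicates in place. Replicate 1 had a peak at exon 10 (fold 9.18, pileup 27) and a peak in the 3′ UTR, 495 nt after the stop codon, with a fold of 5.93 and a pileup of 39. Replicate 2 had a peak on the 5′ UTR with a fold of 12.5 and a pileup of 21, the highest fold of any member peak, as well as a peak at exon 14 (fold 6.57, pileup 16). Its last peak, at the start of exon 27 (fold 6.36, pileup 25), had a summit in 3′ UTR only by a non-canonical transcript. At the 5′ end, 13 bp of the peak also lay on the antisense gene DICER1-AS1. The windows at the summits of the shared exon 8 site are shown as an example of its coding sites.
DICER1, exon 8, replicate 1 summit, chr14:95124579-95124608: gctggaatgatggtaagagaactacagaaa
DICER1, exon 8, replicate 2 summit, chr14:95124470-95124499: tatgtgaagagcacttctcacctgcctcac

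**Figure D2:**
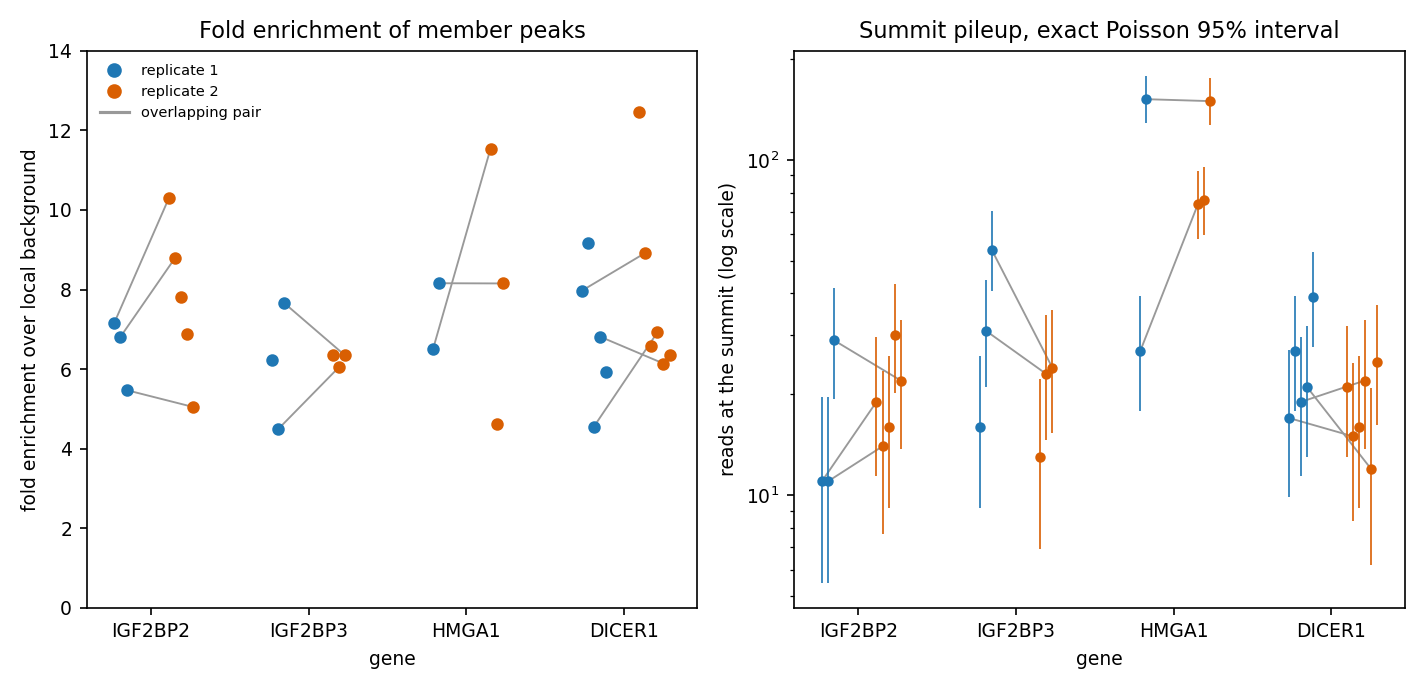
Fold enrichment (left, linear axis) and summit pileup with its exact Poisson 95% interval (right, log axis) of each member peak by gene, in replicate 1 (blue) and replicate 2 (orange), with grey lines joining overlapping peaks. Pileups were 11 to 152 reads in replicate 1 and 12 to 150 reads in replicate 2, and the highest in each was the last-exon peak of HMGA1.

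Against all peaks, those of the members were of ordinary strength. Their median fold was 6.81 in replicate 1 and 6.89 in replicate 2, at the 48.6th and 44.9th percentiles of the lists. The lowest fold was 4.49 and 4.63, and the highest 9.18 and 12.5. Of the member peaks, 10 of 13 in replicate 1 and 10 of 17 in replicate 2 overlapped a peak of the other, a mean of 67.9 ± 12.8% (SD, n = 2), beside 60.1% and 61.2% of all peaks. The pileups of each of the 10 shared pairs were compared by an exact binomial test, two-sided, against the median ratio of all 13071 shared pairs, with Benjamini-Hochberg adjustment over all of them. The test takes counting error into account and not the spread between cultures. It called 2 of 10 pairs, beside 13.2% of all pairs.

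The pairs called were the 5′ end of HMGA1, higher in replicate 2 (27 against 74 reads, exact p = 3.18e-06, adjusted p = 2.13e-04), and the 3′ UTR of IGF2BP3, higher in replicate 1 (54 against 24 reads, exact p = 9.01e-04, adjusted p = 0.0129). For the other 8 pairs, the difference was not detectable at these pileups, with adjusted p from 0.425 to 1.0 in the exact test. All pairs of IGF2BP2 and DICER1 were among these 8. The last-exon peaks of HMGA1 were the pair with the most reads, and there the pileups of 152 and 150 gave an exact p of 0.954.

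The let-7 seed matches of these mRNAs were mostly in genes without a peak. The canonical 3′ UTRs of the 7 genes held 15 matches, of which 8 were 8-mers. There were 4 in IGF2BP1, 4 in HMGA2, 4 in LIN28B, 1 each in IGF2BP2, IGF2BP3 and HMGA1, and 0 in DICER1. The genes with a match held 0.416 to 1.33 matches per kb of 3′ UTR, against 0.0631 over all protein-coding genes, of which 9.76% held a match. Thus 12 of the 15 matches were in the 3 mRNAs with 0 peaks. Since these genes were chosen as let-7 targets, the density describes the choice and was not tested.

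Of the 3 matches in mRNAs with peaks, 2 lay under a peak of replicate 1 and 1 under a peak of replicate 2. The HMGA1 match, 960 nt into the 3′ UTR, was under the wide last-exon peak in both replicates, but 839 and 991 nt from the summits. The 8-mer of IGF2BP3, 560 nt into its 3′ UTR, was covered in replicate 1 alone, by the peak of 1292 bp, at 765 nt from the summit of that peak. The nearest summits to it were those of the stop codon peaks, 628 nt away in replicate 1 and 572 nt in replicate 2. The 8-mer of IGF2BP2 lay outside the peaks, 680 and 681 nt from the nearest summits. In these 3 mRNAs the points of highest pileup were therefore far from the let-7 match, with 572 nt as the shortest distance.

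In the coding sequence, DICER1 held 4 of the 5 matches of the 7 genes and LIN28B the other. The exon 21 match printed above was covered by the peak of replicate 2, at 161 nt from its summit, and lay outside the peak of replicate 1, at 273 nt. A second match in the same exon, at chr14:95103641-95103647, lay outside the peaks of both. None of the 13 precursors of microRNAs with the let-7 seed was under a peak in either replicate.

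**Figure D3:**
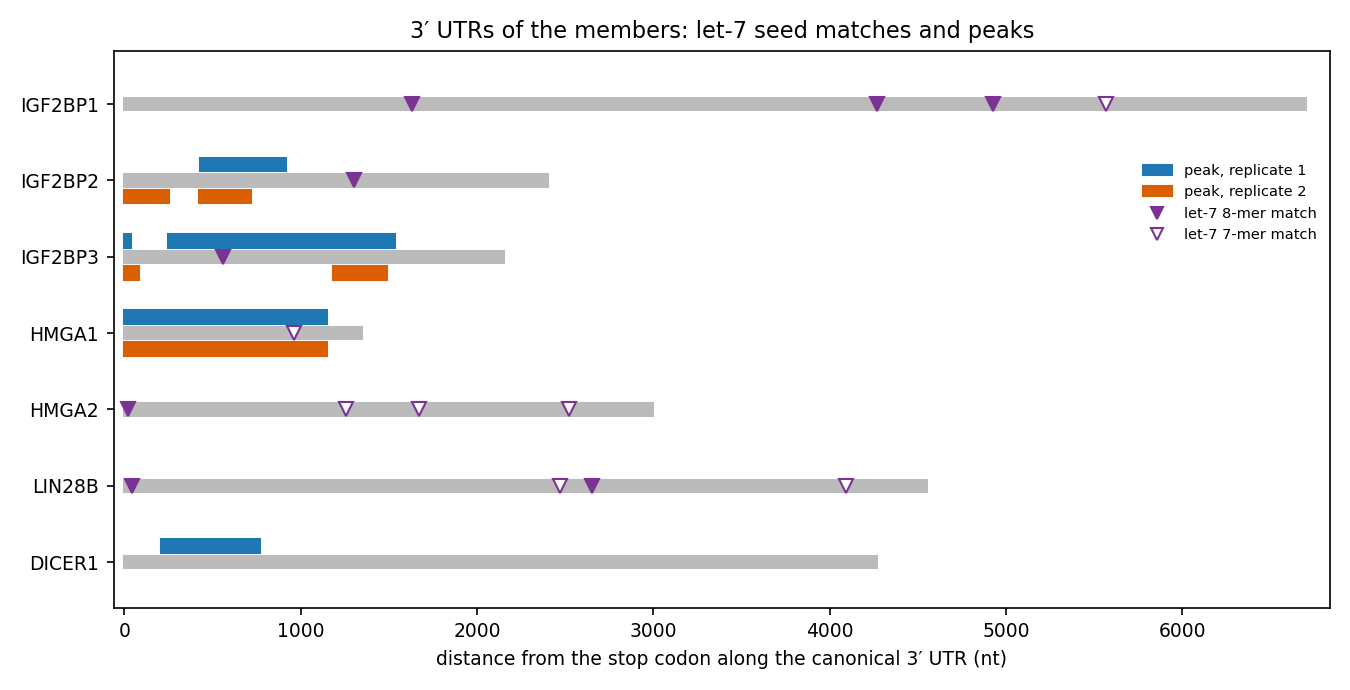
Canonical 3′ UTRs of the 7 genes (grey), in nt from the stop codon, with the peaks of replicate 1 (blue, above) and replicate 2 (orange, below) and the let-7 seed matches (triangles, filled for 8-mers). IGF2BP1, HMGA2 and LIN28B hold 4 matches each and no peak, the HMGA1 match lies under peaks of both replicates, and the IGF2BP3 match lies under a peak of replicate 1 only.

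Parts of these mRNAs have copies elsewhere in the genome, which bears on where their reads could be placed. The share of 31-mers that occur once in hg38 was 56.5% and 56.2% in the last-exon peaks of HMGA1, 69.0% and 78.3% in the 3′ UTR peaks of IGF2BP3, and 69.9% and 70.5% in those of IGF2BP2. In DICER1 it was 100% for all peaks but the 3′ UTR peak of replicate 1, with 83.9%. The 31-mer at the summit itself occurred once for 12 of 13 and 16 of 17 peaks. The exceptions were the HMGA1 last-exon peak in replicate 1 and the IGF2BP3 3′ UTR peak in replicate 2, whose summit 31-mers each occurred 2 times.

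Loci that share sequence with HMGA1 also carried peaks. Of 6 loci that shared at least 20 31-mers with HMGA1 peaks, 5 had a peak in both replicates, at the processed pseudogenes HMGA1P1, HMGA1P3, HMGA1P6 and HMGA1P8 and in MFSD2B, whereas that with HMGA1P2 had 0. The folds at the pseudogenes were 8.48 to 10.4 in replicate 1 and 8.89 to 9.72 in replicate 2. They were 18.4 and 15.7 in MFSD2B, which shared 51 31-mers, against 8.16 and 8.15 at the last-exon peak of HMGA1. IGF2BP2 and IGF2BP3 each had 3 such loci and DICER1 had 1, all with 0 peaks. The search for loci left out 31-mers with over 20 copies, such as the most frequent one under the exon 6 peaks of IGF2BP2. The Bowtie settings in the study's methods admit reads with several placements. Whether the same reads were placed at HMGA1 and at the loci that share its sequence cannot be told from peak lists. The part of shared sequence in the HMGA1 peak was not tested. With only those member peaks whose 31-mers all occur once, a rule added after the data were seen, 2 of 7 genes, HMGA1 and DICER1, kept a shared pair, and the 3′ UTR share of summits was 5.56% in place of 27.1%. IGF2BP2 and IGF2BP3 lost all their shared pairs under this rule, since every paired peak of theirs holds 31-mers that occur elsewhere, and each kept 1 peak, in replicate 2 alone.

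**Figure D4:**
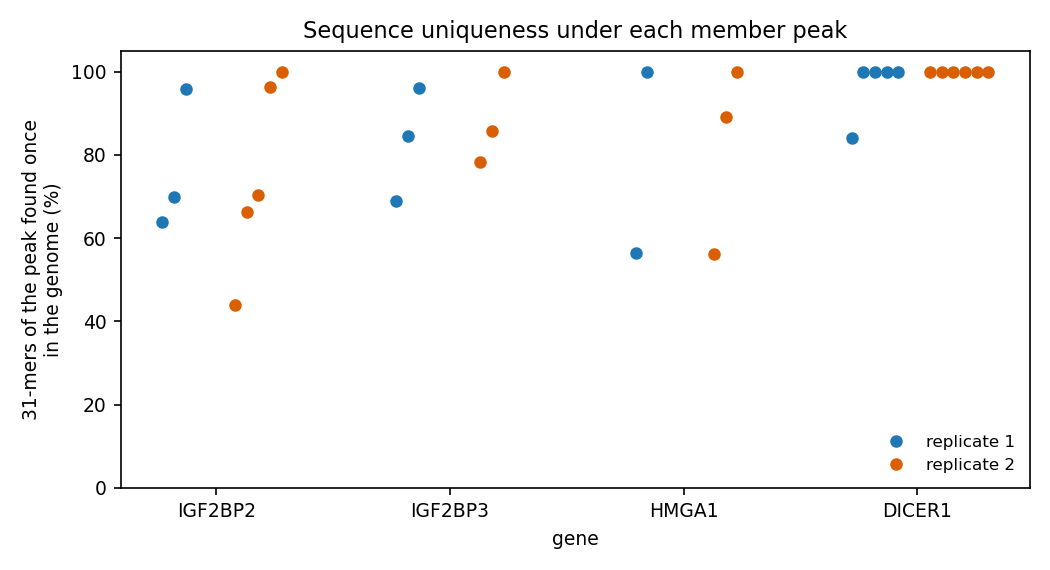
Share of the 31-mers of each member peak that occur once in hg38, in percent, by gene, in replicate 1 (blue) and replicate 2 (orange). The last-exon peaks of HMGA1 are at 56.5% and 56.2%, and all DICER1 peaks but 1 are at 100%.

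Other genes of the let-7 pathway were compared from lists of known members. Among 30 further let-7 targets, 18 had a peak in replicate 1, 16 in replicate 2 and 12 in both, and 10 of 30 (33.3%) had an overlapping pair, near the 30.5% of all protein-coding genes. The shared peaks with the largest fold were in IGF1R, the receptor of insulin-like growth factors (fold 11.0 and 14.3, pileup 19 and 23), CDK6, a kinase of G1 (fold 10.7 and 13.8, pileup 22 and 27), and CCND1, its cyclin (fold 10.6 and 12.2, pileup 59 and 85). Their summits lay in CDS and an intron for IGF1R, in introns for CDK6 and in 5′ UTR for CCND1. The 8 genes without a peak included the oncofetal genes LIN28A and TRIM71, as well as IGDCC3, PRTG, STARD13, FIGN, CCND2 and MYCN. LIN28A and LIN28B, both blockers of let-7 maturation, thus had 0 peaks.

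The genes that make microRNAs or act with them had shared peaks in 13 of 23 cases (56.5%). The largest were in TUT4, which uridylates let-7 precursors bound by LIN28 (fold 13.5 and 14.6, pileup 28 and 29), in TRIM25, a cofactor of that step (fold 11.9 and 15.7, pileup 33 and 96), and in TNRC6B, a partner of Argonaute proteins (fold 10.2 and 13.3, pileup 20 and 30). The summits lay in CDS for TUT4 and TRIM25, and in an intron and CDS for TNRC6B. DGCR8, TARBP2 and AGO3 had 0 peaks. Of 13 reported partners and clients of IGF2BP proteins, 9 (69.2%) had a shared peak, led by the RNA-binding proteins SYNCRIP (fold 12.2 and 14.6) and PABPC1 (fold 12.1 and 14.3) and by the ubiquitin ligase subunit BTRC (fold 11.9 and 12.6), whose mRNA is a known client. The summits of these peaks lay in introns for SYNCRIP and BTRC and in 5′ UTR for PABPC1, in both replicates. CD44, another known client, had 0 peaks. These lists were chosen by known role, with earlier results of these data known. Their shares stand beside that of all protein-coding genes, expressed or not, as a description with no test.

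**Figure D5:**
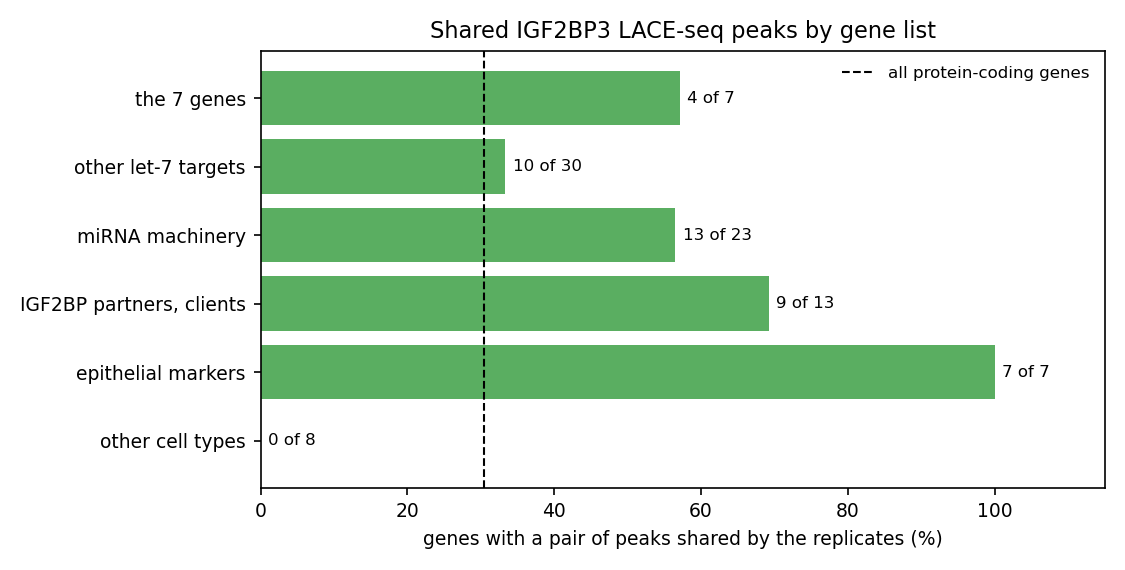
Share of genes with a pair of peaks shared by the replicates, in percent, for the 7 genes and 5 other lists, with the counts beside the bars and the 30.5% of all protein-coding genes as a dashed line. The other let-7 targets (33.3%) are near the line, and the microRNA machinery (56.5%) and the IGF2BP partners and clients (69.2%) are above it.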

How the data were processed

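LACE-seq peaks were analysed from 2 replicates of OE-19 cells. According to the study's methods, cells were crosslinked with UV, and RNA was immunoprecipitated and cut with MNase. The submitters' processing notes name fastp, HISAT2, MACS2 and hg38, whereas the methods name Bowtie and Piranha; the files have the layout that MACS2 writes. The versions are not given in the sources used here. Peaks were called per replicate and carry no strand, so each was read on the strand of its gene.

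For each peak the authors deposited a fold enrichment, the ratio of summit to local background. They also deposited −log10 of its p-value and of its q-value. The deposited score column repeats the q-value and was not used. The pileup was computed as the whole number that gives both fold and p-value under a Poisson distribution, with a tolerance of 0.001 on −log10 p.

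Peaks overlapping a GENCODE 44 gene span by 1 bp were assigned to it, and summits were classed over all transcripts in the order CDS, 3′ UTR, 5′ UTR, non-coding exon and intron. Overlap between replicates was counted from 1 bp. Shared pairs were called at an adjusted p of 0.05. Motifs were sought within 50 nt of summits on the gene strand. All 7 genes and all their peaks are named, and of each list the 3 genes whose shared peak had the largest fold, by the lower replicate; genes without a peak were named in addition. The members and lists were chosen with earlier results of these data known. The pileup recovery and the binomial test were tested on simulated data. Python 3.11.15, numpy 2.4.6, scipy 1.17.1 and pandas 2.3.3 were used. Other settings were tried for overlap, peak strength, transcripts, peak position, the let-7 match and single replicates.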

Additional observations from a re-analysis of the deposited data

How the results depend on the processing

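Of 78 values under alternatives, 50 stayed within the spread of the replicates or within 1.5 times the count, and 28 moved. Some of the 50 could not have moved, so the tally is no measure of stability. Leaving out a replicate shifts a mean share by less than the SD of the 2 values, whatever the data. A cutoff of 5 on −log10 q removed no member peak, since the lowest was at 6.43. With only the 5000 peaks of each list with the largest −log10 q, 1 gene (HMGA1) had peaks in both replicates and a shared pair, 2 had a peak in either, with 2.5 peaks per replicate, 50% of summits in 3′ UTR and 16.7% each in CDS, 5′ UTR and introns, 41.7% of peaks overlapping the other replicate, and 12 rather than 23 other let-7 pathway genes with a shared peak. An overlap of at least 50% of each peak gave 54.3% of peaks overlapping and 1 pair called rather than 2, and summits within 50 bp gave 33.9%. With 1 transcript per gene, 6.79% of summits lay in 5′ UTR and 39.8% in introns, and by the middle of the peak 9.73% and 26.2%. The 2 let-7 matches of 3′ UTRs under a peak became 0 within 100 bp of a summit, 1 with 8-mers only, and 1 to 2 when either replicate was left out. With only peaks whose 31-mers all occur once, added after the data were seen, 2 genes had peaks in both replicates and a shared pair, 4 had a peak in either, with 7.0 peaks per replicate, 5.56% of summits in 3′ UTR, 36.7% in CDS, 21.1% in 5′ UTR and 36.7% in introns, 0 let-7 matches and 1 pair called; the cause of the other moves was not tested.

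Leaving out a replicate gives no value for shared pairs. No paired analysis was possible because there is a single group. The median member pileup was 27 and 22 reads, which limits what the pair test can call, and every SD rests on 2 values.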
